A study of Rattus norvegicus with 6 samples.

Results

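A set of 10 rat genes of amino acid uptake, serine synthesis and mitochondrial folate metabolism were examined in fibroblast-like synoviocytes treated with emodin. They were chosen by name, as the rows of the deposited count table whose gene symbol is Slc7a11, Slc7a5, Slc3a2, Slc7a1, Slc1a5, Slc38a2, Phgdh, Psat1, Shmt2 or Mthfd2. All 10 were found, each in 1 row, among the 34156 genes listed, and all 10 had enough counts to test. RNA from 6 samples of rat RA-FLS, cells of the joint lining obtained from a commercial supplier, was sequenced after poly(A) selection. The TNF-α group (3 libraries) received 10 ng/mL TNF-α, and the TNF-α+EMO group (3 libraries) received 10 ng/mL TNF-α together with 80 μmol/L emodin (EMO), an anthraquinone from rhubarb. All 6 samples are labelled as wild type, with rheumatoid arthritis as the disease state. The labels give day 5 for every sample, whereas the study's methods give a single day of incubation, and which applies could not be settled. No group without TNF-α and no group with EMO alone was analysed here, so each comparison is of EMO on top of TNF-α.

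Cells take up amino acids through carriers of the solute carrier (SLC) families. SLC7A11 exchanges extracellular cystine for glutamate and SLC7A5 takes up leucine and other large neutral amino acids, and both reach the membrane only when bound to the same heavy chain, SLC3A2 (CD98). Serine is made from a glycolytic intermediate by PHGDH, PSAT1 and PSPH in turn, and its side carbon is passed to folate in the mitochondrion by SHMT2 and MTHFD2 for the synthesis of nucleotides and other products. Many of these genes are known targets of ATF4, the transcription factor that is translated when amino acids are scarce or the endoplasmic reticulum is stressed.

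The libraries held 16813322 to 17794455 counts on genes. Values are given as normalized counts, which are counts scaled by TMM (edgeR's trimmed mean scaling) to a common library size, or, where genes are compared with each other, as CPM per kilobase, where CPM is a gene's share of the TMM-scaled library and the deposited gene length is used. The fibroblast identity of the cells was checked first. Of 12 markers of fibroblast-like synoviocytes, 11 were in the table and 8 were tested. All 8 were lower with EMO, against 41.4% of all genes tested. The 8 had a median log2 fold change of -5.96, with a range of -8.76 to -0.92. The summed level of the 11 per length ranged from 4240 to 4489 CPM per kilobase with TNF-α and from 1025 to 1114 with EMO. Col1a1, a collagen chain, had 111181 ± 9932 normalized counts with TNF-α and 3709 ± 46.1 with EMO (SD, n = 3 each), and Vim, the intermediate filament vimentin, had 61464 ± 1350 and 32387 ± 1299. Thy1, Pdpn and Prg4, which define synovial fibroblasts in tissue, had at most 7 counts in any library. Of the 9 leukocyte markers, 3 had 0 counts in every library, Marco and Cd163 among them, and Ptprc had at most 1 count in a library. The summed level of the 9 was 43.2 to 46.3 with TNF-α and 28.5 to 30.8 with EMO. Of these genes 2 were tested, 1 higher (log2 fold change 0.75) and 1 lower (-1.10). Such a sum does not show that leukocytes were present. Summed epithelial markers, nearly all of them Krt8, ran from 297 to 323 and from 59.3 to 69.7 with Epcam at 0 in every library. Of the 6, 2 were tested, and 1 was higher (log2 fold change 7.39) and 1 lower (-2.28). Summed endothelial markers were 0.560 to 0.668 and 0.172 to 0.233 (1 of 4 tested, and lower). The mitochondrially encoded mRNAs took 3.33% to 3.55% of the counts with TNF-α and 0.191% to 0.214% with EMO. What part these shifts have in the results that follow was not tested, and in bulk RNA fewer cells of a type and less RNA per cell cannot be told apart.

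Of the 10 genes, 7 were higher with EMO, 1 was lower, and 2 did not pass (threshold of 0.05 on the adjusted p of the quasi-likelihood test in edgeR, adjusted by Benjamini-Hochberg over all 13614 genes that were tested). Of the 7, Slc7a11, Slc7a5, Slc3a2, Slc7a1, Shmt2 and Mthfd2, 6 in all, rose by more than 1 on the log2 scale, and none fell by that much. Changes were the rule in these libraries, since 80.9% of all genes tested passed, 39.4% of them higher and 41.4% lower as shares of all tested. A rise of more than 1 on the log2 scale was seen in 19.5% of the genes tested and a fall of that size in 27.8%. The groups did not overlap in normalized counts in 8 of the 10 genes, against 82.9% of all genes tested, so neither this share nor the share that passed sets the 10 genes apart. Their median log2 fold change was 1.50 (TNF-α+EMO over TNF-α), where that of all genes tested was -0.01. The 10 genes were chosen with earlier results of these data known, so this difference is a description and not a test.

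**Figure D1:**
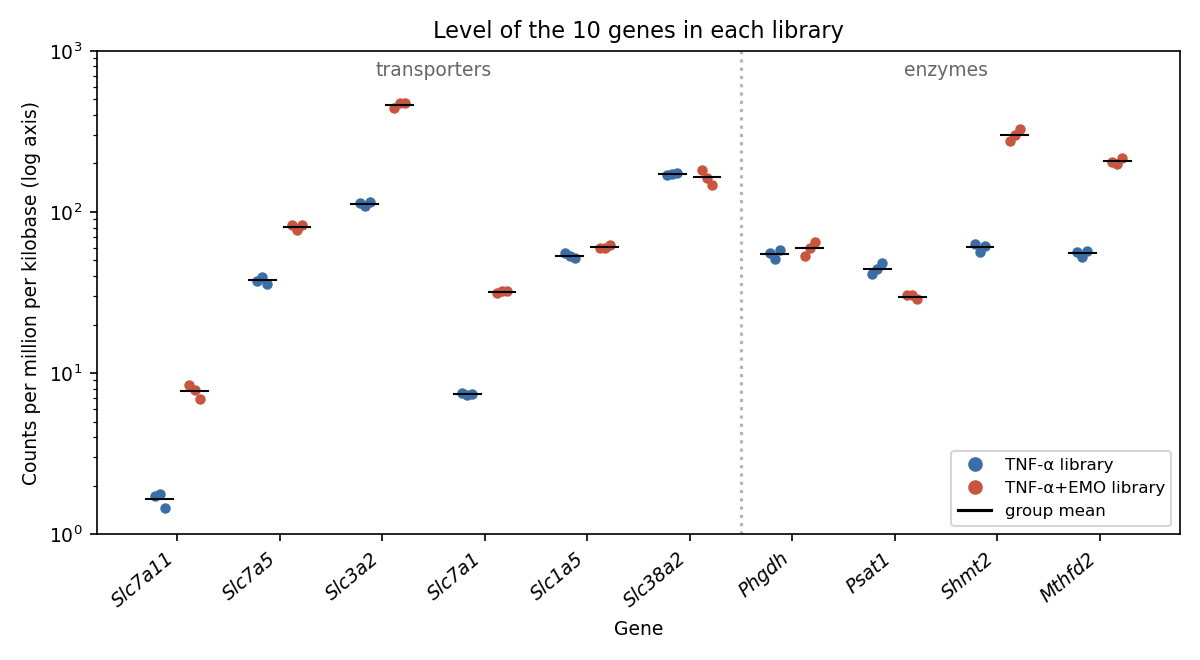
Level of each of the 10 genes (CPM per kilobase, log axis) in the 3 TNF-α libraries (blue) and the 3 TNF-α+EMO libraries (red), with black bars at the group means. Slc7a11, Slc7a5, Slc3a2, Slc7a1, Shmt2 and Mthfd2 are shifted up with EMO with no overlap, while Slc38a2 and Phgdh overlap between the groups.

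The cystine exchanger and its heavy chain rose by similar factors. Slc7a11 (ENSRNOG00000010210, chromosome 2, 139453774 to 139528162, minus strand, Rnor_6.0) had 263, 273 and 223 normalized counts with TNF-α and 1291, 1195 and 1055 with EMO. Every EMO library was above every TNF-α library, and the rise was 4.66-fold (log2 fold change 2.22, standard error 0.11, adjusted p = 7.7e-09). Slc3a2 (chromosome 1, 224906554 to 224921092, minus strand), the heavy chain, had 3997, 3850 and 4048 normalized counts with TNF-α and 15488, 16715 and 16785 with EMO. That is a 4.12-fold rise (log2 fold change 2.04, standard error 0.06, adjusted p = 1.3e-10). Slc7a5 (chromosome 19, 54693959 to 54722563, minus strand), the large neutral amino acid carrier, rose less. Its normalized counts were 2222, 2340 and 2136 with TNF-α and 4928, 4598 and 4917 with EMO, a 2.16-fold rise with no overlap (log2 fold change 1.11, standard error 0.06, adjusted p = 2.3e-08).

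Slc7a1 (chromosome 12, 8032809 to 8108972, plus strand) encodes CAT1, which takes up arginine and lysine without a heavy chain. It had 852, 834 and 845 normalized counts with TNF-α and 3553, 3639 and 3685 with EMO, with the libraries of each group close together. The rise was 4.30-fold (log2 fold change 2.10, standard error 0.06, adjusted p = 9.6e-11). The remaining pair of carriers, which bring glutamine and other small neutral amino acids into the cell, hardly differed between the groups. Slc1a5 (chromosome 1, 78710539 to 78724794, plus strand), or ASCT2, had 2623, 2528 and 2464 normalized counts with TNF-α and 2822, 2833 and 2970 with EMO. The groups did not overlap, but the rise was only 1.13-fold (log2 fold change 0.18, standard error 0.06, 95% interval 0.05 to 0.31, adjusted p = 0.014). This call did not hold with library totals in place of TMM (log2 fold change 0.07, adjusted p = 0.30) or without any one of the TNF-α libraries (adjusted p from 0.12 to 0.28). Slc38a2 (chromosome 7, 138088649 to 138100841, minus strand), or SNAT2, had 13556, 13728 and 13896 normalized counts with TNF-α and 14467, 12965 and 11678 with EMO. The EMO libraries lay on both sides of the TNF-α libraries, and the difference did not pass (log2 fold change -0.07, 95% interval -0.24 to 0.09, adjusted p = 0.37). It was 0.020 without TNF-α+EMO replicate 3.

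The enzymes divided between the start of the serine route and its mitochondrial end. Phgdh (chromosome 2, 200484246 to 200513564, minus strand), the first enzyme of serine synthesis, had 1731, 1578 and 1800 normalized counts with TNF-α and 1651, 1861 and 2017 with EMO. The groups overlapped and the difference did not pass (log2 fold change 0.11, 95% interval -0.07 to 0.30, adjusted p = 0.23). Without TNF-α+EMO replicate 1 it did, at 0.21 (adjusted p = 0.025), and without TNF-α replicate 2 its sign turned, at -0.011. Psat1 (chromosome 1, 233124092 to 233145941, minus strand), the aminotransferase of the next step, was the only one of the 10 genes that fell. It had 2001, 2133 and 2327 normalized counts with TNF-α and 1476, 1474 and 1392 with EMO, a 1.49-fold fall with no overlap (log2 fold change -0.57, standard error 0.07, adjusted p = 1.9e-05).

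Shmt2 and Mthfd2, which act in the mitochondrion, rose together. Shmt2 (chromosome 7, 70824715 to 70829815, minus strand), which moves the side carbon of serine onto folate, had 2250, 1998 and 2202 normalized counts with TNF-α and 9878, 10652 and 11703 with EMO. It rose 5.00-fold (log2 fold change 2.32, standard error 0.08, adjusted p = 4.3e-10), the largest rise among the 10 genes. Mthfd2 (chromosome 4, 115004448 to 115015965, minus strand), which oxidizes the folate-bound carbon, had 1993, 1872 and 2040 normalized counts with TNF-α and 7207, 7032 and 7665 with EMO. Its rise was 3.71-fold (log2 fold change 1.89, standard error 0.06, adjusted p = 3.9e-10), and neither gene overlapped between the groups. No other listed gene overlaps any of the 10 in position.

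**Figure D2:**
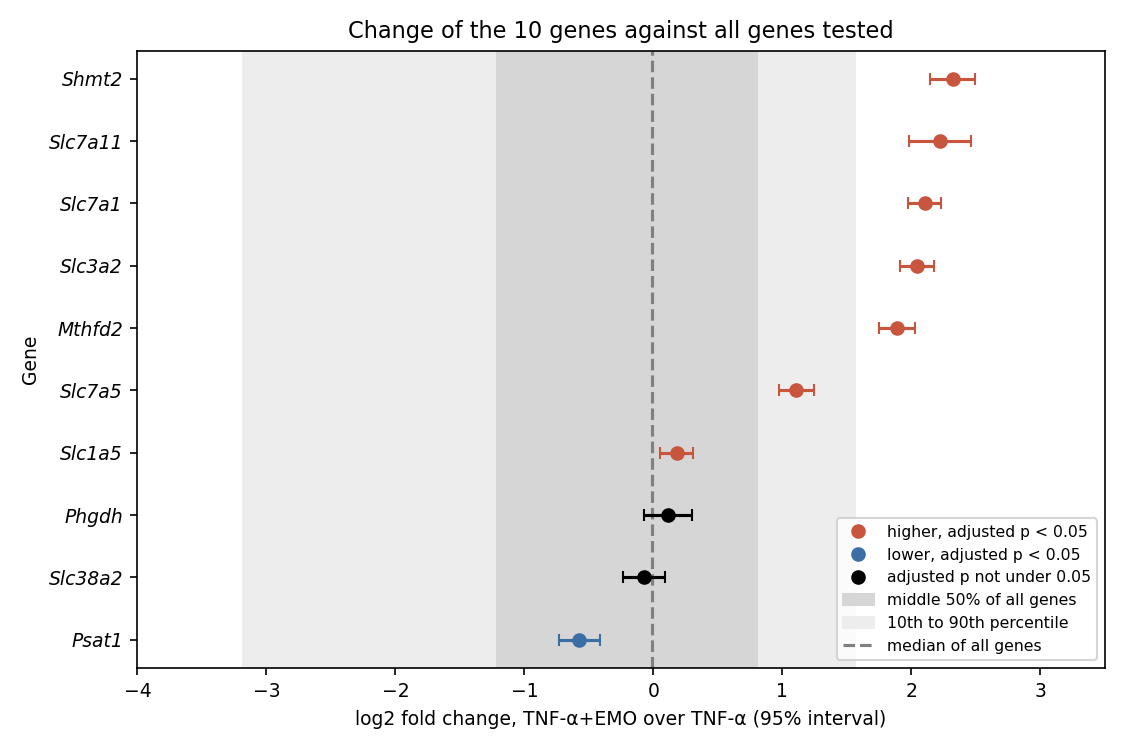
Log2 fold change (TNF-α+EMO over TNF-α) of each of the 10 genes with its 95% interval from edgeR, over the spread of all genes tested (dark band, middle 50%, light band, 10th to 90th percentile, dashed line, median). Shmt2, Slc7a11, Slc7a1, Slc3a2 and Mthfd2 lie above the 90th percentile of 1.56, Slc7a5 lies inside the light band, and Slc1a5, Phgdh, Slc38a2 and Psat1 lie inside the dark band, whose edges are -1.21 and 0.80.

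Against the spread of all genes tested, the rises of Shmt2, Slc7a11, Slc7a1, Slc3a2 and Mthfd2 stood at the 93.2 to 95.7 percentile of log2 fold changes and that of Slc7a5 at the 82.7 percentile. As levels, the 10 genes covered a wide range. Per length, Slc38a2 was the highest with TNF-α at 172 ± 2.13 CPM per kilobase (SD, n = 3), followed by Slc3a2 at 112 ± 2.91. Shmt2 (60.3), Mthfd2 (55.6), Phgdh (55.0) and Slc1a5 (53.7) came next, and each of these overlapped with its neighbour in the order. Psat1 (44.4), Slc7a5 (37.6), Slc7a1 (7.45) and Slc7a11 (1.66) followed without overlap. With EMO, Slc3a2 was the highest at 463 ± 20.7, then Shmt2 at 301 ± 25.7, Mthfd2 at 206 ± 9.24, Slc38a2 at 164 ± 17.5 and Slc7a5 at 81.0 ± 3.16. Slc1a5 (60.8) and Phgdh (59.5) overlapped, and Slc7a1 (32.0), Psat1 (29.8) and Slc7a11 (7.73) were the lowest. Slc7a11 was thus the lowest of the 10 in both groups, and its level moved from the 15.8 to the 46.8 percentile of all genes tested.

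Ratios within a library do not depend on how libraries are scaled, and 5 ratios of per-length levels were compared between the groups by an exact permutation test (two-sided, with p adjusted over the 5), which with 3 libraries a group cannot give a p below 0.1. The ratio of Slc7a11 to its heavy chain Slc3a2 was 0.0152, 0.0164 and 0.0127 with TNF-α and 0.0193, 0.0165 and 0.0145 with EMO. These overlapped, with a difference of 0.18 on the log2 scale (exact permutation p = 0.40). Single libraries weighed on this value, which was 0.077 without TNF-α+EMO replicate 1, 0.078 without TNF-α replicate 3 and 0.28 without TNF-α+EMO replicate 3. The ratio of Slc7a5 to Slc3a2 was 0.330, 0.361 and 0.314 with TNF-α and 0.189, 0.163 and 0.174 with EMO, 1.91-fold lower with no overlap. The ratio of Psat1 to Phgdh was 0.738, 0.863 and 0.825 with TNF-α and 0.570, 0.505 and 0.441 with EMO, 1.60-fold lower. The ratio of Mthfd2 to Shmt2 went from 0.892, 0.943 and 0.933 to 0.735, 0.665 and 0.659, 1.35-fold lower, and that of Slc1a5 to Slc38a2 from 0.326, 0.310 and 0.299 to 0.328, 0.368 and 0.428, 1.20-fold higher. The last was 0.26 on the log2 scale, and 0.16 without TNF-α+EMO replicate 3. In these 4 ratios the groups did not overlap, and each had the smallest p the test can give (exact permutation p = 0.1, adjusted p = 0.125), so none passes a threshold of 0.05. Summed over the 6 light chains known to pair with Slc3a2 (Slc7a5, Slc7a6, Slc7a7, Slc7a8, Slc7a10 and Slc7a11), the per-length level was 0.538 to 0.589 of that of Slc3a2 with TNF-α and 0.267 to 0.303 with EMO. Slc7a5 made up 58.2% to 61.4% of that sum with TNF-α and 61.2% to 64.9% with EMO, and Slc7a11 2.36% to 2.82% and 5.41% to 6.36%. Of the 6, Slc7a10 had 0 counts in every library and Slc7a8 at most 1 count in a library.

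**Figure D3:**
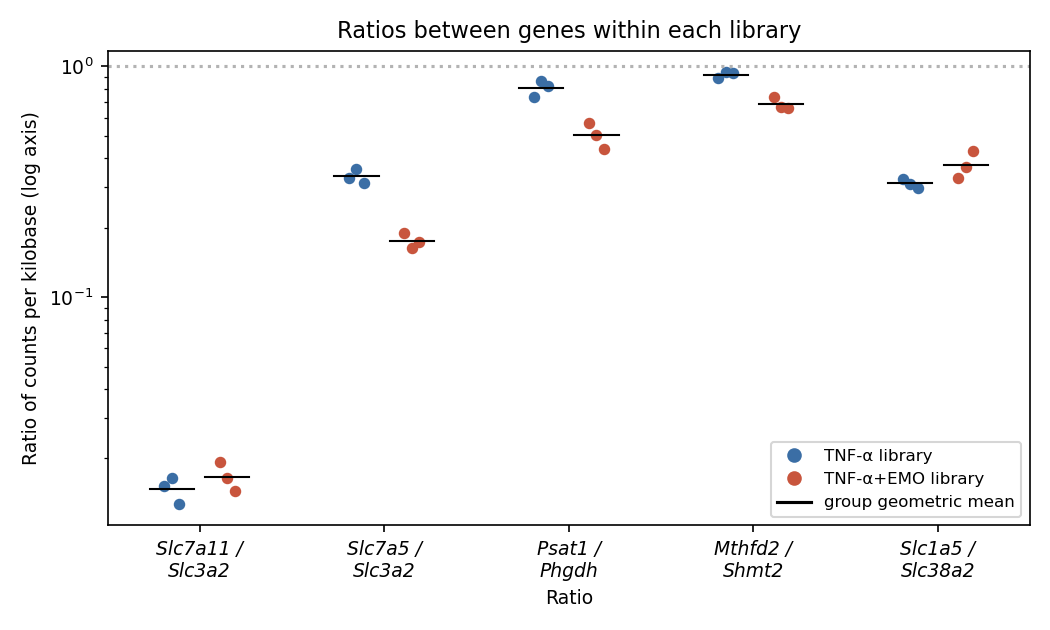
Ratio of per-length levels (counts per kilobase, log axis) for 5 gene pairs in each TNF-α library (blue) and TNF-α+EMO library (red), with black bars at the geometric means and a dotted line at 1. Slc7a11 keeps overlapping ratios to Slc3a2, while Slc7a5 to Slc3a2 falls from between 0.314 and 0.361 to between 0.163 and 0.189.

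The promoters of the 10 genes were read to show which letters lie before genes that rose and genes that did not. By symbol, 9 of the 10 genes, all but Slc1a5, matched RefSeq's promoter table (build GRCr8), with 10 windows of 300 bases, since Slc3a2 has 2 listed starts. Each window runs from 250 bases before the start of the transcript to 50 after it. Both strands were searched for TGATGNAA, the C/EBP-ATF response element through which ATF4 acts, for TGACNNNGC, the antioxidant response element bound by NRF2, and for CACGTG, the E-box bound by MYC. No matches overlap in the windows shown. TGATGNAA was found in 1 of the 9 genes, Slc7a1, against 3.98% of all 33469 windows of the same length. TGACNNNGC was found in 4, Slc3a2 (second start), Slc7a1, Slc38a2 and Phgdh, against 12.1% of all windows, and CACGTG in 1, Slc7a5, against 6.42%. The shares of all windows are counted by window. In that unit the 3 motifs were in 1, 4 and 1 of the 10 windows, and the first start of Slc3a2 held none. Genes that rose and genes that did not were thus both among those with TGACNNNGC, and Slc7a11, Shmt2, Mthfd2 and Psat1 held none of the 3 motifs. A match is a run of letters and not a shown binding site, and no match speaks only of these windows. The 250 bases before the start, 5′ to 3′ on the gene's strand with matches in capitals, are printed for Slc7a1 (chr12:11664238-11664487, plus strand), the only gene with TGATGNAA, for the second start of Slc3a2 (chr1:215039671-215039920, minus strand), for Slc38a2 (chr7:129742620-129742869, minus strand), which has a match but did not pass the test, and for Slc7a11 (chr2:136668265-136668514, minus strand), which rose and has none.
Slc7a1: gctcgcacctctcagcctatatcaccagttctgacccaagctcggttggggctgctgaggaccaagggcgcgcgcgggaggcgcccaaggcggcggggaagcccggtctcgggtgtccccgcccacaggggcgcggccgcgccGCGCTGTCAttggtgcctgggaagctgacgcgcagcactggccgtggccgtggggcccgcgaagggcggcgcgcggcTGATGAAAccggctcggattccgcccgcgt
Slc3a2: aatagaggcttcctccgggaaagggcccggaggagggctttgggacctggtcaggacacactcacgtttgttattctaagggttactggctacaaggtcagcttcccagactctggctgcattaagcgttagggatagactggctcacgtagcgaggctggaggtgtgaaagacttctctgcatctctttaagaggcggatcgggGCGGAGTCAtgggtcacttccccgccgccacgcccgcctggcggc
Slc38a2: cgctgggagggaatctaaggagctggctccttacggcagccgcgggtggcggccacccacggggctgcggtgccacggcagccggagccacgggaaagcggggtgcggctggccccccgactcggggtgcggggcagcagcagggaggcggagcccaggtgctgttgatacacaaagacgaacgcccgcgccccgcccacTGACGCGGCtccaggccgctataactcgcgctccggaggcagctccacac
Slc7a11: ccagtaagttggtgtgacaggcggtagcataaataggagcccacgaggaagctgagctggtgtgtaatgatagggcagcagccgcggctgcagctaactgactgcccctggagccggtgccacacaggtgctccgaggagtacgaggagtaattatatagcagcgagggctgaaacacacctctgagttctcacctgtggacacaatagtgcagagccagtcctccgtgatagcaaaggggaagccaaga

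The rest of serine, glycine and folate metabolism was divided in the same comparison. Of 28 further genes tested, 12 were higher with EMO, 8 lower and 8 did not pass, with a median log2 fold change of 0.23. Beside this count and those of the lists that follow stand the shares of all genes tested, 39.4% higher and 41.4% lower. A mix of rises and falls therefore does not set a list apart. Psph, the phosphatase that completes serine synthesis, had 289, 276 and 349 normalized counts with TNF-α and 1495, 1533 and 1901 with EMO, a 5.39-fold rise (log2 fold change 2.43, standard error 0.12, adjusted p = 1.1e-08). The 3 enzymes of serine synthesis therefore went 3 ways, with Phgdh not passing, Psat1 lower and Psph higher, and the per-length level of Psph over that of Phgdh was 0.211 to 0.244 with TNF-α and 1.04 to 1.19 with EMO. Sfxn1, which carries serine into the mitochondrion, rose 3.23-fold, from 3149 ± 43.7 to 10164 ± 1292 normalized counts (SD, n = 3 each). Mat2b, a regulatory subunit of methionine adenosyltransferase, rose 4.41-fold. Slc25a32, the mitochondrial folate carrier, rose 2.87-fold, and Aldh1l2, a mitochondrial folate dehydrogenase, rose from 8.79 ± 3.50 to 101 ± 5.39 normalized counts.

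Shmt1 and Mthfd1, cytosolic counterparts of Shmt2 and Mthfd2, went the other way. Shmt1, the cytosolic form of SHMT2, had 577, 535 and 527 normalized counts with TNF-α and 185, 244 and 269 with EMO, 2.35-fold lower (log2 fold change -1.23, standard error 0.13, adjusted p = 5.2e-06). Mthfd1, the cytosolic folate enzyme, was 1.20-fold lower (adjusted p = 0.0048). Per length, Shmt2 stood at 3.68 to 4.12 times the level of Shmt1 with TNF-α and at 42.9 to 52.8 times with EMO, and Mthfd2 at 2.26 to 2.41 times that of Mthfd1 with TNF-α and at 9.76 to 10.8 times with EMO. Mthfd1l, which releases formate from the mitochondrion, had 991 ± 37.0 and 882 ± 50.4 normalized counts and did not pass (adjusted p = 0.058). Mthfd2l, also mitochondrial, did not pass (log2 fold change 0.25, adjusted p = 0.41). The level of Mthfd2 was 29.9 to 61.8 times that of Mthfd2l with TNF-α and 102 to 156 times with EMO. Of the mitochondrial glycine cleavage genes, Amt and Dld rose (log2 fold change 0.80 and 0.92). Gcsh did not pass (0.01, adjusted p = 0.89), and Gldc fell (-1.34, adjusted p = 0.0068). A rise was thus not shared by all mitochondrial genes of the list. Mtrr, which reactivates methionine synthase, was 1.77-fold lower.

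**Figure D4:**
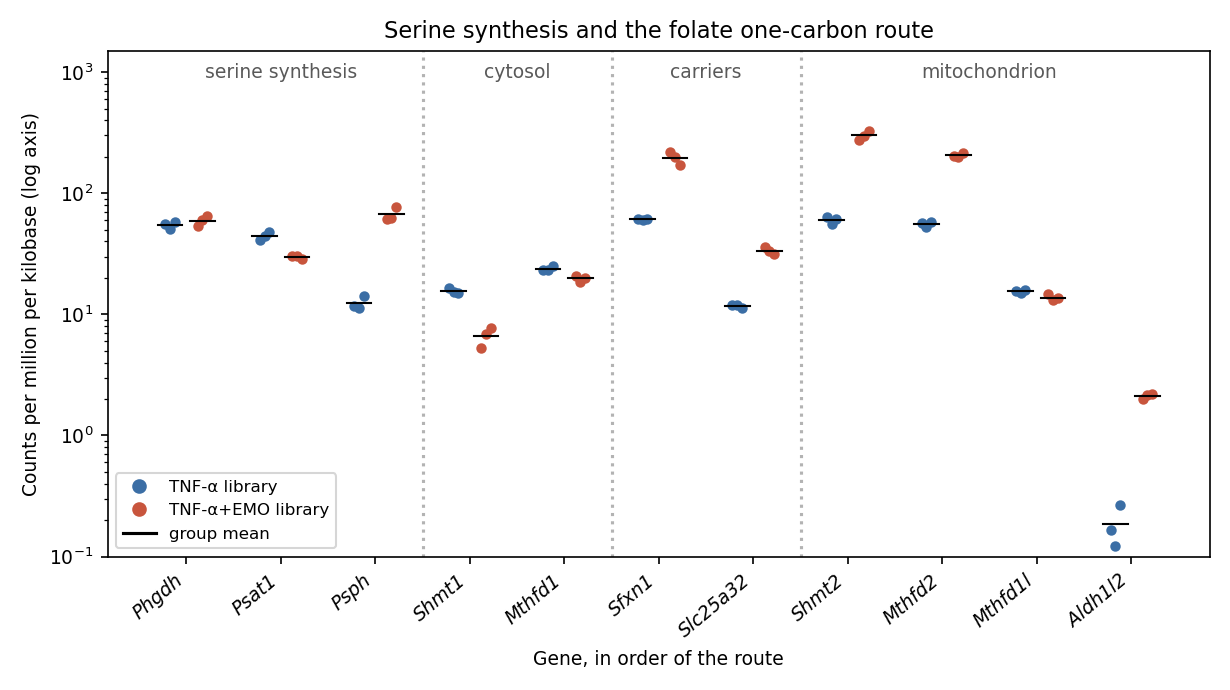
Per-length level (CPM per kilobase, log axis) of the genes of serine synthesis, the cytosolic folate enzymes, the carriers into the mitochondrion and the mitochondrial folate enzymes, in each TNF-α library (blue) and TNF-α+EMO library (red), with black bars at the group means. Psph, Sfxn1, Slc25a32, Shmt2, Mthfd2 and Aldh1l2 are higher with EMO, Psat1, Shmt1 and Mthfd1 are lower, and Phgdh and Mthfd1l did not pass the test. The figure shows part of the list, without Mthfd2l and the glycine cleavage genes.

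Other amino acid carriers of the plasma membrane were divided evenly, much as all genes tested were (39.4% higher and 41.4% lower). Of 31 listed, 14 were tested, and 7 were higher and 7 lower, with a median log2 fold change of -0.30. Slc1a4 (ASCT1), a carrier of serine and alanine from the family of Slc1a5, rose 4.12-fold, from 968 ± 74.4 to 3984 ± 62.8 normalized counts (SD, n = 3 each, adjusted p = 4.6e-10), whereas Slc1a5 itself rose 1.13-fold. Slc6a9, a glycine carrier, rose 2.46-fold, and Slc7a6, another partner of Slc3a2, rose 2.20-fold. Slc38a1, from the family of Slc38a2, fell 2.13-fold, from 1793 ± 14.0 to 840 ± 92.2 normalized counts. Slc6a6, the taurine carrier, fell 11.1-fold and Slc36a4 3.50-fold. Among 12 lysosomal carriers and amino acid sensors tested, 8 were higher and 4 lower, with a median of 0.73. The 4 that were lower were all sensors, but not all sensors were lower. Slc36a1, which was higher, is in this list and in that of the plasma membrane, and is counted in both. Sesn2, a leucine sensor of the mTORC1 pathway, rose 22.1-fold, from 562 ± 21.3 to 12398 ± 338 normalized counts, and its relatives Sesn3 and Sesn1 fell 7.97-fold and 2.60-fold. Ctns, which exports cystine from lysosomes, rose 5.07-fold and Slc38a7, which exports glutamine, 3.99-fold. Castor1, an arginine sensor, fell 2.11-fold.

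Enzymes of other amino acids showed no common direction, and neither did all genes tested. Of 19 tested, 7 were higher, 11 lower and 1 did not pass, with a median of -0.44. Asns, asparagine synthetase, had 2063, 2301 and 2414 normalized counts with TNF-α and 15788, 14990 and 12716 with EMO, a 6.42-fold rise (log2 fold change 2.68, standard error 0.09, adjusted p = 5.9e-10). Gpt2, a mitochondrial alanine aminotransferase, rose 2.09-fold, and Asl, of the urea cycle, 3.45-fold, although Asl overlaps a gene with up to 470 counts. Glul, glutamine synthetase, fell 11.3-fold, from 2150 ± 188 to 191 ± 8.29 normalized counts, and Glud1, glutamate dehydrogenase, fell 2.84-fold. Arg1, arginase, had 393 ± 22.6 normalized counts with TNF-α and 2 or 3 counts in each TNF-α+EMO library.

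For cystine's main product, glutathione, 9 genes of cysteine and glutathione metabolism were tested, and 5 were higher and 4 lower, with a median of 0.47. Chac1, which breaks down glutathione, had 133, 133 and 140 normalized counts with TNF-α and 6085, 6416 and 7168 with EMO, a 48.4-fold rise (adjusted p = 3.3e-12). Ggt1, which starts the breakdown of extracellular glutathione, rose 3.01-fold and Txnrd1, thioredoxin reductase, 1.54-fold. The enzyme that starts glutathione synthesis was divided, as its modifier subunit Gclm fell 1.46-fold and its catalytic subunit Gclc rose 1.39-fold, from 1255 ± 57.1 to 1738 ± 61.3 normalized counts (adjusted p = 4.6e-05). Gss, glutathione synthetase, rose 1.48-fold (adjusted p = 6.4e-04), and Gsr, glutathione reductase, fell 1.47-fold. Chac2 fell 2.33-fold and overlaps a gene with up to 507 counts.

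Among 19 regulators of the amino acid response and of related stress pathways, all tested, 13 were higher, 4 lower and 2 did not pass, with a median of 0.81. Atf4 had 4855, 4816 and 4787 normalized counts with TNF-α and 34028, 34740 and 32257 with EMO, a 6.99-fold rise (log2 fold change 2.80, standard error 0.06, adjusted p = 1.1e-11). Atf3, a factor induced by stress, had 17.3 ± 2.20 and 859 ± 3.66 normalized counts, a 49.4-fold rise, and Trib3, a pseudokinase, rose 29.0-fold. Ddit3, the stress factor CHOP, rose 61.2-fold but overlaps a gene with up to 9616 counts in a library. Of the factors whose motifs were searched, Myc fell 1.61-fold, from 602 ± 45.5 to 374 ± 9.19 normalized counts, and Nfe2l2, which encodes NRF2, rose 1.35-fold. Eif2ak4, the GCN2 kinase that senses uncharged tRNA, fell 2.84-fold, from 983 ± 63.3 to 346 ± 22.7 normalized counts, whereas Eif2ak3, the PERK kinase of the endoplasmic reticulum, rose 4.25-fold, from 1323 ± 28.2 to 5620 ± 477. Cebpb fell 1.64-fold. Eif2ak3, Nfe2l2, Gclc, Gss, Slc25a32, Aldh1l2 and Slc36a1 fall outside the rule for named genes and were picked after their values were seen. The same holds for Mthfd1, Mthfd1l, Mthfd2l, Amt, Dld, Gcsh and Gldc, and for the markers Thy1, Pdpn, Prg4, Marco, Cd163 and Krt8.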

How the data were processed

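RNA-seq of 6 libraries (3 TNF-α, 3 TNF-α+EMO), grouped by the treatment labels, was analysed. Reads were cleaned and aligned with Hisat2 by the authors' provider, and the submitters' processing notes name FastQC, Trimmomatic, HISAT2 and the build Rnor_6.0. The counting program, annotation version and strand setting are not given in the sources used here. The authors deposited raw counts per gene and FPKM values, which are scaled by gene length and mapped reads. FPKM served only as an alternative, and the authors' own comparison (group means, fold changes and p-values) was not used. The deposited gene length was used for per-length levels.

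Of the listed genes, 13614 reached 10 counts in 3 or more libraries. They were scaled by TMM and modelled in edgeR 4.0.16 under R 4.3.3 (robust quasi-likelihood F test, Benjamini-Hochberg adjustment, common coefficient of variation 0.121). The standard error is the log2 fold change divided by the root of F. DESeq2 1.42.0 and limma 3.58.1 were alternatives, and the fits were tested on simulated counts. The methods of the study call the samples biological replicates. A count of 3 or fewer was taken as the floor. Depth was 16813322 to 17794455 counts per library.

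The 10 genes and all lists were chosen with earlier results of these data known. Named were the 10 genes, up to 3 genes with the largest rise and 3 with the largest fall that passed in each list at a mean of at least 100 normalized counts, and Atf4, Psph, Asns and Chac1, and, of the markers, Vim, Col1a1, Ptprc, Pecam1 and Epcam. Samtor, Prodh, Cth, Ggt5, Col1a2 and Pecam1 were not analysed here. A gene that the rule names is not reported here. Of 2 rows named Sfxn2, the first was used.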

Additional observations from a re-analysis of the deposited data

How the results depend on the processing

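In each of 14 alternatives (other scalings, DESeq2, limma on log2(FPKM + 1), other count filters, a replicate block, leaving out each library), Slc7a11, Slc7a5, Slc3a2, Slc7a1, Shmt2 and Mthfd2 stayed higher and Psat1 lower with their calls kept. Their log2 fold changes ranged from 1.70 to 2.32 for Slc7a11, 0.99 to 1.17 for Slc7a5, 1.93 to 2.10 for Slc3a2, 1.95 to 2.14 for Slc7a1, 2.20 to 2.40 for Shmt2, 1.78 to 1.94 for Mthfd2 and -0.70 to -0.53 for Psat1. Slc1a5 lost its call in 4 alternatives, those with library totals and without each TNF-α library. Slc38a2 turned to 0.020 without TNF-α+EMO replicate 3 (range without 1 library -0.16 to 0.020). Phgdh turned to -0.00060 with library totals and to -0.011 without TNF-α replicate 2, and passed without TNF-α+EMO replicate 1 at 0.21 (range without 1 library -0.011 to 0.21). The cause was not tested. With library totals the median of all genes tested was -0.12, where it was -0.01 with TMM.

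The replicate numbers are shared by both groups, but same-numbered libraries deviated together by a correlation across genes of only -0.007 to 0.068, so they were not taken as pairs. With the replicate block, 10806 genes passed in place of 11008, of which 10709 were shared, 8 of the 10 genes passed, and the median of the 10 was 1.50. Within a group, counts differed beyond sampling noise, with a mean chi-square per gene from 4.72 to 25.2, the latter between TNF-α+EMO replicates 1 and 3.

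Stricter thresholds reduce counts by construction. With an absolute log2 fold change over 1, 6442 genes passed (2659 higher), and over 2, 3064 passed (809 higher and 2255 lower). Of the 10 genes, over 1 none was lower, and over 2, 4 were higher and 0 lower. With over 1 and then over 2, the numbers higher were 5 and 2 for lysosomal carriers and sensors, 6 and 3 for serine, glycine and one-carbon genes, 4 and 1 for other amino acid synthesis, and 2 and 1 for cysteine and glutathione. The numbers lower were 4 and 1 for serine, glycine and one-carbon genes, 7 and 3 for other amino acid synthesis, 2 and 1 for cysteine and glutathione, and 1 and 0 for regulators. Over 2, plasma membrane carriers had 2 higher and 4 lower, lysosomal carriers and sensors 2 lower and regulators 8 higher. The 5 ratios kept their direction with FPKM and without any 1 library, but that of Slc7a11 to Slc3a2 ranged from 0.077 to 0.28 and that of Slc1a5 to Slc38a2 from 0.16 to 0.35 on the log2 scale.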
